A study of Mus musculus with 57 samples.

Results

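Mouse pancreas at 5 days of caerulein pancreatitis was compared with pancreas at 72 hours, which asks how the tissue differed between 2 points of recovery. The members are the regions that the labels put at 5 days (6 regions) and at 72 hours (4 regions), 10 of the 57 regions of the series. All mice were C57BL/6, 8 to 9 weeks old. Both groups had received intraperitoneal caerulein, given hourly for 8 hours on 2 consecutive days. The 7 control regions carry only the label control and served as background. The sources used here state neither the start of the 72 hours and 5 days nor the sex of the mice.

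Each region was a square about 650 µm on a side, taken from a 5 µm formalin-fixed section of a tissue array. RNA was counted with the GeoMx Whole Transcriptome Atlas, in which probes carrying a DNA barcode hybridise to the section, ultraviolet light cleaves the barcodes off within the region, and the barcodes are sequenced. At 5 days 3 regions came from array 1 and 3 from array 2. At 72 hours 1 region came from array 1 and 3 from array 2. The labels give 2 to 4 regions for each piece of tissue and do not tie regions to animals. Regions of a group may therefore share an animal, on the same array or across the arrays. The placing of regions is not stated.

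Caerulein is an analogue of cholecystokinin, the hormone that makes acinar cells release their enzymes. Given in excess, it makes acinar cells digest themselves from within, which brings oedema, inflammatory cells and a partial loss of acinar features. In the mouse this injury is reversible: inflammatory cells leave, some acinar cells divide, and the stores of digestive enzymes are rebuilt. Regenerating (Reg) proteins are small secreted lectins that acinar cells make in large amounts during pancreatitis.

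The 10 regions had 1036609 to 2868219 target counts and a sequencing saturation of 94.6 to 96.3%. The 72 hour region of array 1 stood apart from the others. It covered 509054 µm², where each other region covered 421366 µm², it had the lowest total count, and 1265 of its targets exceeded 2 times the negative-probe value, against 558 to 958 in the other 9 regions. No other 72 hour region came from array 1. Values named below as "without that region" come from the fit that leaves it out. Levels are given in CPM, target counts scaled to a total of 1000000 in each region. Those of single targets and summed gene lists are also scaled by TMM factors, which even out differences in composition. Nuclei per region were 1278 ± 150 (SD, n = 6) at 5 days and 1221 ± 222 (SD, n = 4) at 72 hours, with a two-sided exact permutation p = 0.695. Targets above 2 times the negative-probe value numbered 710 ± 137 (SD, n = 6) and 822 ± 311 (SD, n = 4), with an exact permutation p = 0.495. The negative-probe value was 43.4 ± 1.25 CPM (SD, n = 6) at 5 days and 47.0 ± 5.34 CPM (SD, n = 4) at 72 hours, with p = 0.200 by the same exact test. Without the array 1 region of 72 hours this difference was -5.75 CPM with an exact permutation p = 0.0476. With regions permuted only within arrays, the exact permutation p was 0.775 for nuclei and 0.2875 for the negative-probe value. For targets above 2 times that value it was 0.0875. All these p-values treat regions as independent and are too small where regions share an animal.

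The tissue had the transcripts of acinar pancreas in both groups. All 23 digestive enzyme targets that were tested had a median over 2 times the negative-probe value in both. Ctrb1, a chymotrypsinogen, was at 26785 to 29908 CPM at 72 hours and 23156 to 36242 CPM at 5 days. Of 21 macrophage markers tested, 2 had such a median at 72 hours and 1 at 5 days, and of 9 lymphocyte markers measured none was bright enough to be tested. Of 10 islet genes tested, 4 had such a median at 72 hours and 4 at 5 days. These were not all the same genes, as Ins2 had it only at 5 days. The haemoglobin target Hba-a1 had it in both groups. Each region is a bulk sample, so fewer cells of a type and less RNA per cell cannot be told apart.

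Between 72 hours and 5 days 2 of 2688 tested targets passed the test, and both were higher at 5 days. They were Ifi27, which encodes an interferon-induced protein of the mitochondrial membrane, and Lgals9, which encodes galectin-9, a secreted lectin of immune regulation. The calls are 0.0744% of the targets tested, by edgeR's quasi-likelihood test on counts summed per time point and array, at a Benjamini-Hochberg adjusted p under 0.05. No target was called lower, while 36 higher (1.34%) and 52 lower (1.93%) targets had an unadjusted p under 0.05, 3.27% of those tested. DESeq2 on the same sums also called 2. Both tests treat the 2 sums of a group as independent, and the arrays may hold tissue of the same animals. In that case these p-values are too small as well. The number of calls depended on what counts as a sample. With 57 regions as samples, whose p-values are too small because regions may share an animal, edgeR called 8 higher (0.298%) and 24 lower targets (0.893%), 1.19% of the tested. With time point and array as a random block of a limma-voom fit, 2 higher and 17 lower targets (0.632%) were called, 0.707% of the tested, and the 2 higher ones were again Ifi27 and Lgals9.

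Ifi27 was at 67.7 CPM in the array 1 region of 72 hours and at 65.9, 66.6 and 62.4 CPM in the 3 regions of array 2. At 5 days it was at 115, 122 and 134 CPM on array 1 and at 124, 133 and 109 CPM on array 2. The groups did not overlap on either array, and the 72 hour regions lay within the control range of 55.0 to 69.2 CPM. Ifi27 rose by 0.94 ± 0.098 on the log2 scale (SE, adjusted p = 7.18e-05 by edgeR on the sums), with 0.89 on array 1 and 0.94 on array 2. Its probe lies at chr12:103439460-103439495 (GRCm38.p6), inside the RefSeq bounds of the gene at chr12:103434189-103440245. At 72 hours the median region was 1.48 times its negative-probe value, and at 5 days 2.87 times. After the negative-probe value was subtracted from each region, the log2 difference was 1.90 (adjusted p = 0.00285 by edgeR).

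Lgals9 was at 44.5 CPM in the array 1 region of 72 hours and at 65.2, 49.6 and 49.3 CPM in the regions of array 2. At 5 days it was at 92.6, 107 and 99.4 CPM on array 1 and at 99.7, 91.1 and 84.5 CPM on array 2. Again the lowest region of 5 days lay above the highest of 72 hours, and the controls were at 47.1 to 59.2 CPM. Lgals9 rose by 0.94 ± 0.11 on the log2 scale (SE, adjusted p = 1.40e-04 by edgeR on the sums), with 1.18 on array 1 and 0.78 on array 2. Its probe lies at chr11:78973094-78973130 (GRCm38.p6), inside the gene's bounds at chr11:78962979-78984924. The 72 hour median was 1.13 times the negative-probe value, close to background, and the 5 day median 2.15 times. With background subtracted the log2 difference was 2.91 (adjusted p = 0.00349), and with the total count as the only scaling it was 0.80 and no longer called (adjusted p = 0.0852). That scaling moved the median of all tested targets to -0.145, from 0.0051 with TMM.

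**Figure D1:**
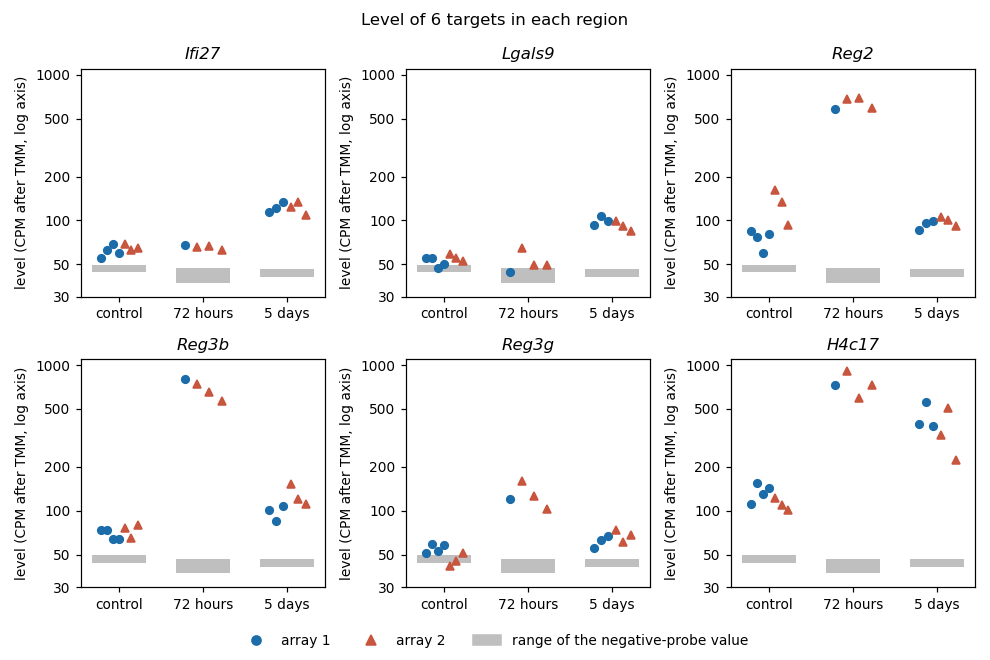
Level of 6 targets in each region, as CPM after TMM on a log axis, for control (7 regions), 72 hours (4) and 5 days (6). Circles are array 1, triangles array 2, and grey bars span the negative-probe value of the group's regions. Ifi27 and Lgals9 are higher in every 5 day region than in any 72 hour region, while the 3 Reg genes and H4c17 are lower.

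The 5 day level of both genes was also set against the rest of the course. This contrast uses the same 5 day sums that gave the calls, so it is no separate support for them. Against the mean of the other 8 groups, which leaves out 72 hours, Ifi27 at 5 days was higher by 0.92 ± 0.061 and Lgals9 by 0.67 ± 0.067 on the log2 scale (SE, adjusted p = 6.35e-08 and 1.35e-05 by edgeR). In that contrast 16 targets (0.595%) were called higher at 5 days and 3 lower, 0.707% of the tested in all. No region outside these 2 groups reached the lowest 5 day level of Ifi27: the highest of the other 47 was 95.3 CPM, at 7 days. For Lgals9 1 of the 47 did, at 86.5 CPM, also at 7 days. The 12 hour regions had 65.1 to 84.0 CPM of Lgals9, whereas those of Ifi27 at 12 hours had 52.3 to 70.4 CPM, on both sides of its control median of 62.8 CPM.

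**Figure D2:**
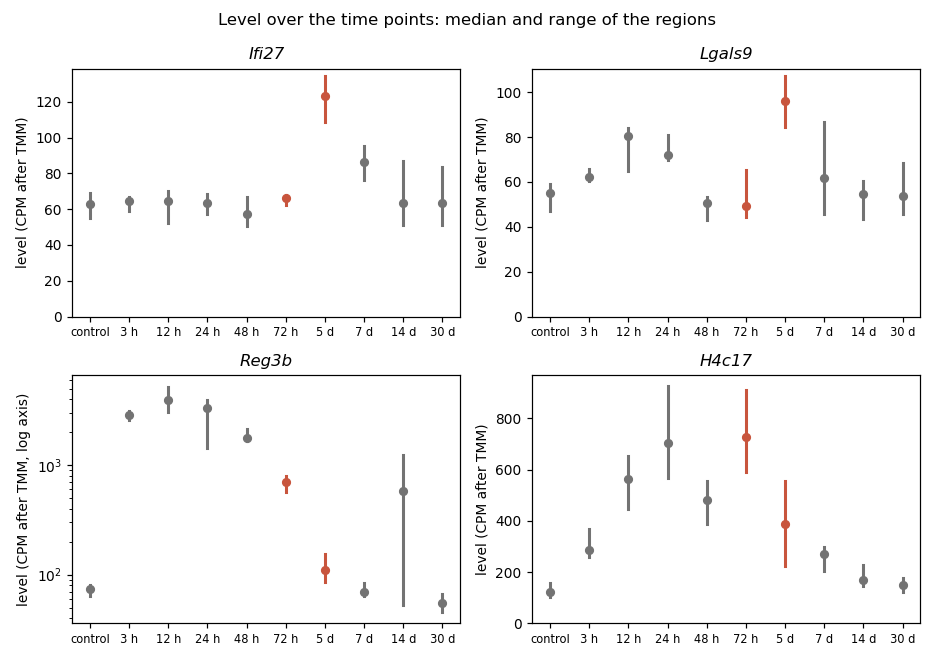
Level of Ifi27, Lgals9, Reg3b and H4c17 at each time point, as CPM after TMM (log axis for Reg3b). Points are the median and bars the range over 3 to 7 regions, with 72 hours and 5 days in red. Ifi27 has its highest median, 123 CPM, at 5 days, Reg3b goes from a median of 697 CPM at 72 hours to 110 CPM at 5 days, and H4c17 from 727 to 388 CPM.

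Of the 13 tested members of the interferon and antigen presentation list, 2 were called, Ifi27 and Lgals9 themselves, beside 0.0744% of all targets. The median of the list was 0.14, against 0.0051 over all targets. Of the 13 values 12 were above 0, Ifi27 and Lgals9 among them. Over all tested targets 51.9% were above 0, the share to set beside later sign counts of this comparison. Within the arrays the list median had opposite signs, -0.050 on array 1 and 0.29 on array 2, and without the array 1 region of 72 hours it was 0.32. Ifitm3, an interferon-induced restriction factor, had a log2 difference of 0.28 ± 0.16, and H2-D1, a class I major histocompatibility molecule, 0.26 ± 0.24 (SE). For both the sign differed between the arrays, -0.050 and 0.40 for Ifitm3 and -0.26 and 0.48 for H2-D1 on arrays 1 and 2. Bst2, a membrane protein that tethers budding virus, was at 55.6 to 78.4 CPM at 72 hours and 61.7 to 85.5 CPM at 5 days, and its difference of 0.23 ± 0.14 did not pass the test. The 32 macrophage markers measured gave a summed level of 1827 to 2232 CPM at 72 hours and 1872 to 1906 CPM at 5 days. The highest sum was that of the array 1 region of 72 hours. On average these markers were near background, at 1.24 to 1.86 times the negative-probe value at 72 hours and 1.28 to 1.44 times at 5 days. Their part in the result was not tested.

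Reg2 and Reg3b had the largest differences in size of all tested targets, and no Reg gene passed the test on the sums. All 6 tested members of the family were lower in each 5 day region than in any 72 hour region, beside 1.56% of all tested targets. Reg2 and Reg3b had adjusted p = 0.667 in the fit that shares its spread over all time points. Over single regions these genes varied widely within other groups, as at 14 days, where Reg2 ranged from 40.6 to 878 CPM. The fit on the sums sees only differences between arrays, and the part of this variation in its result was not tested. With only the 4 sums of 72 hours and 5 days, which leaves 1 residual degree of freedom, Reg2, Reg3b and Reg3g were called lower (adjusted p = 4.57e-05, 6.11e-05 and 0.00165 by edgeR). In the random block fit Reg2, Reg3b, Reg3g and Reg1 were called lower, with adjusted p = 1.65e-04, 6.95e-05, 0.00181 and 0.0248 (limma).

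The 6 tested Reg genes lie in one cluster on chromosome 6, and their upstream sequences are shown because all 6 had lower levels in every 5 day region than in any 72 hour region. RefSeq (GRCm38.p6) gave a promoter for 7 of the 8 genes looked for, with no entry for Ifi27. The 250 bases before the annotated start are printed 5′ to 3′ on the gene's own strand, with matches in capitals to TATAAA, to TTCNNNGAA (the palindromic core bound by STAT factors) and to TTCNNTTTC (a core bound by interferon regulatory factors), searched on both strands.
Reg3b, chr6:78370635-78370884, + strand: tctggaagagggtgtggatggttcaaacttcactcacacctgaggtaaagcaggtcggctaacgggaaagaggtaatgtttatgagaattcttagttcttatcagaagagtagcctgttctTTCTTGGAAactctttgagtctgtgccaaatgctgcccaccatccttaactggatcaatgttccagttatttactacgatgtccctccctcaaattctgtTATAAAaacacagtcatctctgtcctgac
Reg2, chr6:78404905-78405154, + strand: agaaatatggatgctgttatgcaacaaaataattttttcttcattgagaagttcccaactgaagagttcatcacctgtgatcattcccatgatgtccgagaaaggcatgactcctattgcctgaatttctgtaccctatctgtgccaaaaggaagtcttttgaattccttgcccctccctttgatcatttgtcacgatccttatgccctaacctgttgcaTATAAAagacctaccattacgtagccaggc
Reg1, chr6:78425733-78425982, + strand: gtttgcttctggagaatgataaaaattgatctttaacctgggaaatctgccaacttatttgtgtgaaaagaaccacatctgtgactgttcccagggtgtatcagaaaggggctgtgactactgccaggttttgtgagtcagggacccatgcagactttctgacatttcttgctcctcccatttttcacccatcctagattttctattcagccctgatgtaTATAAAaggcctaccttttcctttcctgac
Reg3g, chr6:78468875-78469124, - strand: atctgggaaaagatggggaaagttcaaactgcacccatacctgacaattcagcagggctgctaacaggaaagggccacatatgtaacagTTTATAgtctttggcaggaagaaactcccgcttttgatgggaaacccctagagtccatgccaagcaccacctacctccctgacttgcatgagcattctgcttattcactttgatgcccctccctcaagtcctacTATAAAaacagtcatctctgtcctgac
Reg3a, chr6:78380459-78380708, + strand: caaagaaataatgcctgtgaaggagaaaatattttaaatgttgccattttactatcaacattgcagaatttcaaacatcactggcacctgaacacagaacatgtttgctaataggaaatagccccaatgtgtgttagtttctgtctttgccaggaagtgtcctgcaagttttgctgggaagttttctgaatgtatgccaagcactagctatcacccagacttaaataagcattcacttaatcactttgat
Reg3d, chr6:78378866-78379115, - strand: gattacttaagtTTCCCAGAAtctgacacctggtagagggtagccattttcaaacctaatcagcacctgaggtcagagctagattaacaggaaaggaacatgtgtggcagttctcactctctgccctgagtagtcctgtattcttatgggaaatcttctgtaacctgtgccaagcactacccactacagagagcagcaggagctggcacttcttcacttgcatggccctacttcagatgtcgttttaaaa
Lgals9, chr11:78984925-78985174, - strand: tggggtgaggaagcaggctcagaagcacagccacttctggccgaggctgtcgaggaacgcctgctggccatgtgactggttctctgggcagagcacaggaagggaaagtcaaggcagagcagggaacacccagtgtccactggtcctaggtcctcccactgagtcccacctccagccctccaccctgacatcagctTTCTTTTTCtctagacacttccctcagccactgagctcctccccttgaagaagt

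TATAAA occurred within 30 bases of the start in 4 of the 6 Reg promoters, its first base at -29 in Reg3b, -30 in Reg2, -30 in Reg1 and -27 in Reg3g, where -1 is the last base before the start. Reg3g held another on the opposite strand at -161, and Reg3a and Reg3d held none in this window. TATAAA occurred in 12.3% of 32544 RefSeq promoter windows of that length. TTCNNNGAA occurred in 2 of the 6, beginning at -129 in Reg3b and at -238 in Reg3d, and in 7.04% of windows. The TTCNNTTTC match in Lgals9 began at -54, and 7.15% of windows held that motif. These are matches of letters and no measure of binding.

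Reg2, which encodes a secreted regenerating lectin, was at 578 CPM in the array 1 region of 72 hours and at 682, 693 and 589 CPM on array 2. At 5 days the 6 regions had 86.1, 96.7 and 99.4 CPM on array 1 and 105, 101 and 91.7 CPM on array 2. The 5 day levels lay within the control range of 59.98 to 163 CPM. The log2 difference was -2.66 ± 0.67 (SE), and it was -2.60 on array 1 and -2.70 on array 2.

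Reg3b, whose product is an antibacterial lectin also known as pancreatitis-associated protein, was at 797 CPM on array 1 at 72 hours and at 745, 649 and 567 CPM on array 2. At 5 days it was at 101, 85.0 and 109 CPM on array 1 and at 154, 120 and 111 CPM on array 2. All 6 lay above the highest control region, 80.5 CPM. The log2 difference was -2.61 ± 0.65 (SE), with -3.00 on array 1 and -2.32 on array 2.

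Reg1, the most abundant of the family, was at 7449 CPM on array 1 and at 5592, 4777 and 4492 CPM on array 2 at 72 hours. At 5 days the values were 1956, 2702 and 2911 CPM on array 1 and 3140, 3190 and 1792 CPM on array 2, inside the control range of 1601 to 3840 CPM. The log2 difference was -1.16 ± 0.39 (SE, unadjusted p = 0.00820, adjusted p = 1.00 by edgeR). Reg3g, another antibacterial lectin, was at 120 CPM on array 1 and 159, 127 and 102 CPM on array 2 at 72 hours, and at 55.9 to 73.9 CPM at 5 days, a log2 difference of -0.93 ± 0.30 (SE). The remaining members had smaller differences, -0.44 ± 0.23 for Reg3a and -0.40 ± 0.32 for Reg3d (SE), and are named outside the rule after their values were seen. Tff2, a trefoil peptide of the mucosa on the same list, had 0.53 ± 0.31 (SE), and 0.19 without the array 1 region of 72 hours.

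**Figure D3:**
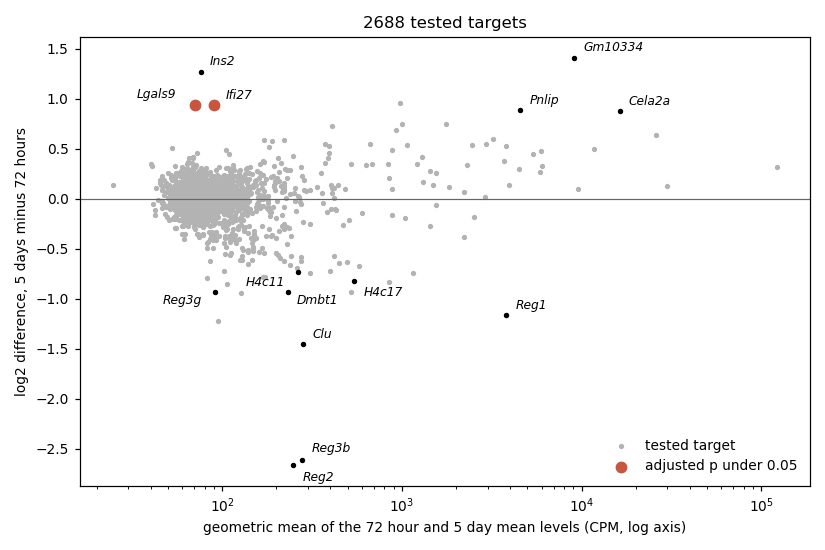
Log2 difference between 5 days and 72 hours for the 2688 tested targets, against the geometric mean of the 2 groups' mean levels in CPM (log axis). Red points are the 2 called targets. Reg2 and Reg3b have the lowest values, -2.66 and -2.61, and Gm10334 the highest, 1.41.

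None of the 23 tested digestive enzymes passed the test. Their median difference was 0.31 (0.40 on array 1 and 0.27 on array 2), against 0.0051 over all targets, and 20 of 23 values were above 0. Without the array 1 region of 72 hours the median was 0.20. In 4 of them all 5 day regions lay above all 72 hour regions, beside 1.60% of all targets. These were Gm10334, a trypsinogen-like gene, Pnlip, pancreatic lipase, Cela2a, an elastase, and Try4, a trypsin.

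Cela2a was at 9596 CPM on array 1 and at 14677, 12344 and 13652 CPM on array 2 at 72 hours. At 5 days it was at 20851, 20146 and 21292 CPM on array 1 and at 23354, 22066 and 19344 CPM on array 2. Every 5 day region was higher, yet below the control mean of 57099 CPM. The log2 difference was 0.88 ± 0.47 (SE, adjusted p = 1.00), and 0.52 without the array 1 region of 72 hours. Pnlip was at 2379 to 4412 CPM at 72 hours and 4990 to 6537 CPM at 5 days, a difference of 0.88 ± 0.60 (SE), with 1.42 on array 1 and 0.49 on array 2. Cela1, an elastase, had 0.75 ± 0.38 (SE), or 0.35 without that region, and its groups overlapped. The most abundant enzymes had smaller values, with Amy2a1, amylase, at 0.48 ± 0.47, Cel, carboxyl ester lipase, at 0.27 ± 0.52, Ctrb1 at 0.13 ± 0.40, and Cela3b, an elastase, at 0.097 ± 0.40 (SE). Without that region these 4 values were 0.15, -0.023, 0.061 and 0.032. The probe of Amy2a1 is listed at 5 positions and that of Try4 at 3, so near-identical genes may be counted with them.

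At 5 days 21 of the 23 enzymes had a mean below that of the controls, and the 2 above it were Gm10334 and 1810009J06Rik, a trypsinogen-like gene at 1055 ± 214 CPM (SD, n = 6) against 60.8 ± 5.45 CPM (SD, n = 7) in the controls. Gm10334 was at 6671 CPM on array 1 and 4912, 4571 and 5590 CPM on array 2 at 72 hours. At 5 days it was at 15738, 16663 and 10818 CPM on array 1 and at 19887, 13028 and 15652 CPM on array 2, against 240 to 508 CPM in the controls. The log2 difference was 1.41 ± 0.59 (SE, unadjusted p = 0.0284, adjusted p = 1.00 by edgeR). Against the 8 other groups, with the same 5 day sums, Gm10334 was 3.62 ± 0.33 higher at 5 days (SE, adjusted p = 4.74e-06 by edgeR). None of those 47 regions reached the lowest 5 day level. Its probe is listed at 3 positions, so reads from near-identical trypsinogen genes may be counted under this name.

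Products of the zymogen granule had values above 0 except Dmbt1 and 2 others. Of 12 tested granule and secretory genes 0 passed the test, 9 values were above 0, and the median was 0.23, or 0.13 without the array 1 region of 72 hours. Zg16, a granule membrane lectin, was at 2174 to 3042 CPM at 72 hours and 3044 to 3894 CPM at 5 days (difference 0.55 ± 0.49, SE). Gp2, the main granule membrane glycoprotein, had 0.58 ± 0.34 and Sycn, syncollin, 0.53 ± 0.37 (SE). Without that region Zg16 had 0.29, Gp2 0.27 and Sycn 0.23. Dmbt1, a secreted mucosal scavenger glycoprotein, was at 386 CPM on array 1 and 316, 303 and 250 CPM on array 2 at 72 hours, and at 154 to 192 CPM at 5 days. Its groups did not overlap, its 5 day levels lay below the control range of 288 to 409 CPM, and the difference was -0.93 ± 0.28 (SE, adjusted p = 1.00 on the sums, 3.74e-04 in the random block fit).

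None of 11 tested genes of acinar identity passed the test (median 0.069, 9 above 0). Of these 7 had a median over 2 times the negative-probe value at 72 hours and 6 at 5 days. Among the genes named next only Rbpjl did. Slc39a5, Gnmt and Tmed6 were near background, with group medians of 1.37 to 1.91 times that value. Slc39a5, a zinc transporter of acinar cells, was at 52.9 to 66.2 CPM at 72 hours and 70.5 to 87.1 CPM at 5 days, without overlap, with a difference of 0.42 ± 0.13 (SE, unadjusted p = 0.00485). Gnmt, a methyltransferase that uses glycine, had 0.28 ± 0.12 (0.13 without the array 1 region of 72 hours), Tmed6, a cargo receptor, 0.27 ± 0.13, and Rbpjl, a transcription factor of the acinar PTF1 complex, 0.27 ± 0.42 (SE). The 17 endoplasmic reticulum chaperones had a median of 0.012 with 9 values above 0 and 8 below, and -0.19 on array 1 and 0.17 on array 2.

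The replication-dependent histone genes, which are transcribed during DNA synthesis, had lower values at 5 days. Of 10 tested genes 0 passed the test on the sums, all 10 values were below 0, and the median was -0.46 (-0.41 on array 1 and -0.44 on array 2). In 3 of the 10 all 5 day regions lay below all 72 hour regions, beside 1.56% of all targets. H4c17, a histone H4 gene, was at 724 CPM on array 1 and 909, 593 and 730 CPM on array 2 at 72 hours. At 5 days it was at 392, 556 and 384 CPM on array 1 and 333, 506 and 224 CPM on array 2, still above the controls at 102 to 156 CPM. The difference was -0.82 ± 0.23 (SE, adjusted p = 0.884 on the sums, 0.0147 in the random block fit). H4c11, also histone H4, had -0.73 ± 0.20, H3c1, a histone H3 gene, -0.65 ± 0.23, and H2bc11, a histone H2B gene, -0.57 ± 0.22 (SE), the last -0.37 without the array 1 region of 72 hours. The probes of these 4 genes are listed at 2 to 6 positions each, so counts of near-identical histone genes may be shared.

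Of 18 tested members of the cell division list 0 were called, and the median was -0.17. Hmgb2, a chromatin protein of proliferating cells, was at 87.1 to 112 CPM at 72 hours and 63.2 to 93.9 CPM at 5 days, a difference of -0.41 ± 0.13 (SE, unadjusted p = 0.00437). Hmgn2, a nucleosome-binding protein, had -0.37 ± 0.16 (SE), or -0.18 without the array 1 region of 72 hours. Ptma, prothymosin, had -0.72 ± 0.30 (SE), with -1.02 on array 1 and -0.34 on array 2.

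**Figure D4:**
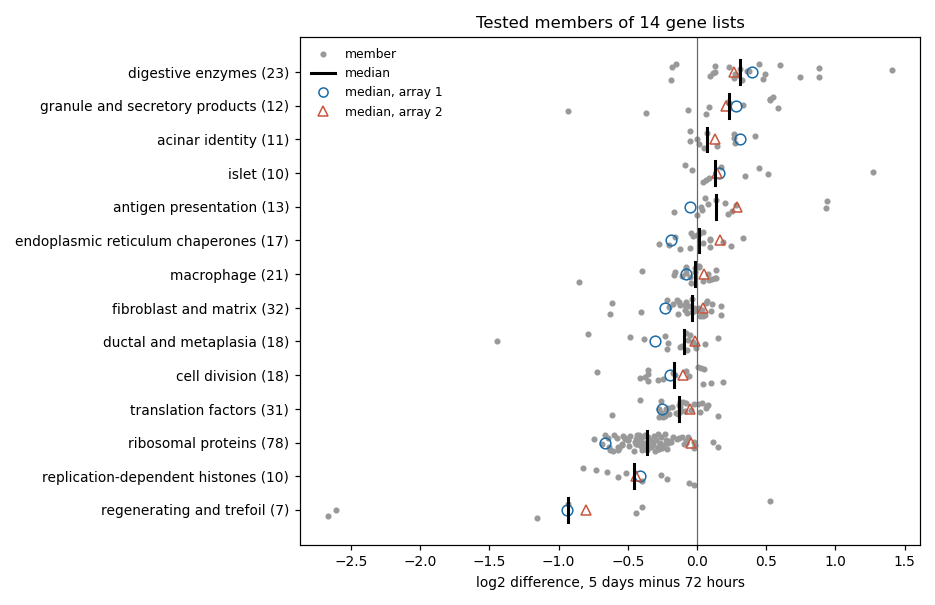
Log2 difference between 5 days and 72 hours for the tested members (grey points) of 14 gene lists, with the number tested in brackets. Black bars are list medians, open circles the medians on array 1 and open triangles those on array 2. The Reg list has the lowest median, -0.93, and the ribosomal proteins have medians of -0.67 on array 1 and -0.046 on array 2.

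Several groups of genes had values away from 0 on array 1, where 72 hours has a single region, and near 0 on array 2. Of 78 tested ribosomal protein genes 76 had a value below 0 and none was called, with a median of -0.36. On array 1 the median was -0.67 and on array 2 -0.046, and without the array 1 region of 72 hours it was -0.047. Rps24, a protein of the small ribosomal subunit, was at 826 CPM in that region and at 452, 430 and 373 CPM in the others of 72 hours, against 312 to 454 CPM at 5 days. The 80 ribosomal protein targets measured summed to 23049 CPM there, the highest of the 10 regions.

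Clu, clusterin, a secreted chaperone of injured epithelium, was at 856 CPM in the same region and at 279, 277 and 229 CPM in the other 3, against 154 to 255 CPM at 5 days. Its difference was -1.45 ± 0.48 (SE), -2.24 on array 1 and -0.26 on array 2, and without that region -0.37. Values on arrays 1 and 2 also differed for Spp1, osteopontin (-1.48 on array 1 and -0.016 on array 2), Krt8, a simple epithelial keratin (-0.90 and 0.023), Col1a1, fibrillar collagen (-1.36 and 0.33), Apoe, an apolipoprotein of macrophages (-1.51 and 0.17), and Hsp90ab1, a cytosolic chaperone (-1.03 and 0.013). The ductal and metaplasia list had a median of -0.093 and the fibroblast and matrix list -0.037, with no member called of 18 and 32.

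**Figure D5:**
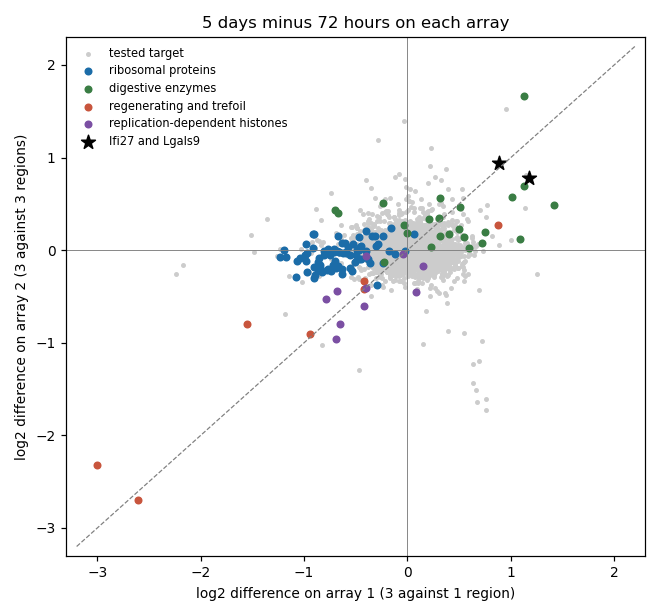
Log2 difference between 5 days and 72 hours on array 1 (3 regions against 1) against that on array 2 (3 against 3), for the 2688 tested targets. Coloured points are 4 gene lists, stars are Ifi27 and Lgals9, and the dashed line marks equal values. Reg2 and Reg3b lie at -2.32 or below on both arrays, while the ribosomal proteins are spread along array 1 with a median of -0.67 and lie near 0 on array 2.

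The islet genes varied from region to region. Ins2, insulin, was at 45.7 to 59.3 CPM at 72 hours, near the negative-probe value, and at 64.4, 144 and 61.2 CPM on array 1 and 71.2, 194 and 155 CPM on array 2 at 5 days. Its groups did not overlap, with a difference of 1.27 ± 0.77 (SE, adjusted p = 1.00 on all sums, 6.55e-05 with the 4 sums of 72 hours and 5 days alone, by edgeR). Ins1 was at 117 to 160 CPM and at 79.2 to 452 CPM (difference 0.51, or 0.19 without the array 1 region of 72 hours), and Gcg, glucagon, at 42.8 to 55.2 CPM and at 35.2 to 87.2 CPM. Over the 10 tested islet genes the median was 0.13. Hba-a1, a haemoglobin gene of red blood cells, was at 72.1 to 500.2 CPM at 72 hours and 77.6 to 185 CPM at 5 days, with opposite signs on the arrays, 0.76 and -1.61. Another haemoglobin target, Hbb-b1, was not called on the sums. With 57 regions as samples, where p-values are too small, it was called lower (-1.29, adjusted p = 0.0338 by edgeR).

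The rule named further targets with an unadjusted p under 0.05 and one sign on both arrays, given here as values. Above 0 were Mtch2, an insertase of the outer mitochondrial membrane (0.95 ± 0.37), Ripply2, a transcriptional corepressor (0.73 ± 0.34), Gm40755 (0.68 ± 0.32), Gm46840 (0.59 ± 0.24), Fdx2, a mitochondrial ferredoxin (0.58 ± 0.25), Pcsk1, a prohormone convertase (0.45 ± 0.18), Lifr, the receptor of leukaemia inhibitory factor (0.24 ± 0.10), and Nucb2, a calcium-binding protein (0.22 ± 0.10, SE). Below 0, besides those above, were Erdr1 (-0.93 ± 0.44), LOC118568705 (-0.83 ± 0.34), Rps19 (-0.74 ± 0.26), Lgals1, galectin-1 (-0.72 ± 0.25), Rpl37a (-0.69 ± 0.27) and Rps6 (-0.67 ± 0.29, SE). Without the array 1 region of 72 hours Ripply2 had 0.34, Rps19 -0.22, Lgals1 -0.26, Rpl37a -0.19 and Rps6 -0.16. Lgals1 was at 179 CPM in the array 1 region of 72 hours and at 105 to 109 CPM in the other 3, all above the 75.5 to 97.1 CPM of 5 days. The most abundant targets of the 10 regions were Lrr1, Ctrb1, Gm10265, Cela2a and Gm52523, and Lrr1, a target named for a leucine-rich repeat protein, was at 83071 to 127920 CPM at 72 hours and 98368 to 184590 CPM at 5 days, with overlap.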

How the data were processed

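RNA was measured in 57 regions of mouse pancreas, of which 10 (5 days and 72 hours) are compared here and 7 controls serve as background. Barcode reads were deduplicated by GeoMx NGS Pipeline 2.3.3.10, per the file headers. The expected counts that the authors deposited cover 9780 targets, each the deduplicated count of its probe, beside an averaged negative-probe value; fractions were rounded here. A further deposited table lists reads and nuclei of each region as counts, the sequencing saturation in percent, the area in µm² as a score per region, and a limit of quantitation as a signal threshold for each region. The submitters' processing notes name limma and mm10, with their role not given in the sources used here.

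Counts were summed per time point and array, giving 20 sums, because regions cannot be assigned to animals from the labels. The 2 sums of a time point may still share animals, which the test does not allow for. The 2688 targets brighter than 2 times the negative-probe value in 3 or more of 57 regions were tested. The filter counted the 5 day regions, where the medians of Ifi27 and Lgals9 exceeded that limit, unlike at 72 hours or in control. With no filter, over 9780 targets, both were called (adjusted p = 1.59e-04 each by edgeR). After TMM scaling, edgeR 4.0.16 (R 4.3.3) was run on the sums (quasi-likelihood, terms for group and array, 9 residual degrees of freedom, all groups sharing 1 spread), and the 5 day and 72 hour terms were compared. Calls are at a Benjamini-Hochberg adjusted p under 0.05, and an SE is the size of the log2 difference over the root of the F statistic. Levels are CPM after TMM per region, for which the SD is over regions. Differences within an array are those of the TMM-scaled log2 CPM of its sums. On simulated data for this comparison, 98 of 100 changes of 1 and 100 of 100 changes of 2 on the log2 scale were recovered. The simulation held 2688 targets, and 9 of 2488 unchanged targets were called. Its counts took their spread from the trend over level, with none particular to a target. It does not show the recovery of targets that vary more, such as Reg2, with an SE of 0.67. Single measures of the regions were compared by two-sided exact permutation tests in scipy, with a smallest possible p of 0.00952. With regions permuted only within arrays, the smallest possible p was 0.0125. DESeq2 1.42.0 and limma 3.58.1 served as alternatives, with other scalings, filters, samples and units of replication.

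Targets were named by a rule: up to 15 called in each direction, filled from those with an unadjusted p under 0.05, one sign on both arrays and a median over 2 times background, up to 4 members of each of 35 gene lists with the largest difference, and the 10 most abundant. Bst2, Reg3a, Reg3d, Gcg, Try4, 1810009J06Rik and Hbb-b1 are named outside the rule, after their values were seen. The members and the lists were chosen with earlier results of these data known. The histone list was matched by name, and 2 matches that are not replication-dependent histones were left out after their values were seen. Probe positions are the deposited ones on GRCm38.p6, and gene bounds and promoters are RefSeq's on that build. The region depth gives little precision for the many targets near background, where a level is within 2 times the negative-probe value.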

Additional observations from a re-analysis of the deposited data

Results flagged for a closer look

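Among 136 sets of region levels and region measures that the text names, 18 held a region whose gap to the nearest other, over the group's range, exceeded Dixon's 95% critical value, which chance alone exceeds in about 1 set of 20. In 11 of these sets it was the single 72 hour region of array 1. Against the other 3 regions of 72 hours it was high for Clu (856 CPM against 229 to 279), 1810009J06Rik (1736 against 749 to 796), Apoe (268 against 66.5 to 94.9), Col1a1 (182 against 61.3 to 73.0), Spp1 (171 against 76.0 to 77.8), Krt8 (176 against 93.2 to 100.2), Lgals1 (179 against 105 to 109), Hsp90ab1 (148 against 82.3 to 86.1), Rps6 (447 against 202 to 242) and H2-D1 (67.7 against 46.2 to 47.1 CPM). It was low for Gnmt, at 55.2 CPM against 76.5 to 79.6 CPM.

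At 5 days 1 region was high for each of 7 targets. Region 6, on array 2, was high for Mtch2 (2397 CPM against 739 to 1245), Gm52523 (19910 against 11260 to 13630) and Gm46840 (416 against 221 to 268 CPM). Region 2, on array 1, was high for Gcg (87.2 CPM against 35.2 to 48.7) and Hba-a1 (185 against 77.6 to 112 CPM). Region 4 was high for Cela1 (2746 CPM against 1880 to 2175) and region 5 for Col1a1 (118 CPM against 58.0 to 80.3). Ifi27, Lgals9 and the Reg genes had no such region in either group.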

How the results depend on the processing

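Ifi27 and Lgals9 were both called, in the same direction, under every alternative run except scaling by the total count, where 1 target, Ifi27, was called and Lgals9 was not (adjusted p = 0.0852, edgeR). The number of calls was 6 with the 4 sums of the groups compared alone, 48 with the 10 regions as samples, 32 with 57 regions as samples, 19 with the random block, 88 on array 1 alone (10 higher and 78 lower) and 85 on array 2 alone (42 higher and 43 lower), and 2 under the other scalings, filters and tests. These fits count regions as samples or rest on fewer sums, and p-values over regions are too small. Leaving out 1 region or 1 sum left 2 to 6 calls, with 6 when the array 2 sum of 72 hours was left out. Replicate numbers did not pair the regions (correlations of same-numbered regions -0.117 to 0.0248), and the fit of 57 regions with a replicate block made 19 calls. Over 65 named genes and their alternatives, 1859 values kept direction and side of the threshold, 112 became called, 1 lost its call and 33 uncalled values changed sign. Without 1 region at a time, the difference in nuclei was -30.7 to 150 and that in targets above 2 times background -189 to 36.3 (-111 with all regions), with the sign turned without the array 1 region of 72 hours. The difference in the negative-probe value was -5.75 to -2.08 CPM. The number of regions at 72 hours limits these comparisons. The causes were not tested.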

Other observations

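Against the mean of the 8 groups other than 72 hours, which include control and the early hours of injury, 16 of 2688 targets were called higher at 5 days and 3 lower (edgeR on the sums). Of 17 tested endoplasmic reticulum chaperones 2 were called higher, and of 17 genes of degradation and stress response in that compartment also 2, with none called lower. The list medians were 0.19 and 0.036, against -0.0023 over all targets, and 13 and 10 values were above 0, beside 1321 of all 2688. Nupr1, a stress regulator on the second list, had -1.18 and was not called, and Hsp90b1, a chaperone, had 0.20. Pdia2, a pancreas-enriched disulfide isomerase, was higher by 0.89 ± 0.20 (SE, adjusted p = 0.0405). Its mean at 5 days, 705 CPM, was nonetheless below the control mean of 924 CPM. Herpud1, a protein of endoplasmic reticulum associated degradation, was higher by 0.75 ± 0.15 (SE, adjusted p = 0.0334), with means of 125 CPM at 5 days and 79.8 CPM in control. Derl3, of the same degradation machinery, was higher by 0.75 ± 0.13 (SE, adjusted p = 0.0132), Fkbp11, a prolyl isomerase on neither list, by 0.58 ± 0.093 (SE, adjusted p = 0.00510), and Hyou1, a chaperone, by 0.42 ± 0.088 (SE, adjusted p = 0.0334). Against 72 hours their log2 differences were 0.33, 0.34, 0.027, 0.29 and 0.19 in that order, and none passed the test. The 3 targets called lower were Clu (-1.98 ± 0.42), Dmbt1 (-1.01 ± 0.23) and Vim, vimentin (-0.46 ± 0.10, SE). Clu had a mean of 195 CPM at 5 days and 193 CPM in control, and Dmbt1 172 and 340 CPM. Pdia2, Herpud1, Derl3, Fkbp11, Hyou1 and Vim, with Nupr1 and Hsp90b1, were picked after their values were seen.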
